A study of Rattus norvegicus with 4 samples.

Results

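Retinoid genes were examined in articular cartilage of rats: the genes that carry vitamin A and its active form, retinoic acid, the receptors that read it, the enzyme that clears it and the genes named for responding to it. The list held 9 genes, of 31007 gene rows in all: Rbp4, Crabp1, Crabp2, Cyp26b1, Rara, Rarb, Rarg, Rarres1 and Rarres2. They were found by gene symbol, and 8 had a row. Crabp1 was listed at 0 in all 4 libraries and is treated as not measured, and Rarb was not analysed here, which left 7 measured genes. Of the 31007 rows 20218 were at 0 in all 4 libraries, so a 0 is not read as absence here or below. The genes had been listed with their difference between zones already known, so those differences are described below without a test.

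The samples came from the proximal tibia of 2 Sprague-Dawley rats aged 10 weeks, with no treatment or genotype given in the labels. From each rat the superficial zone (SFZ), which faces the joint space, and the layers beneath it (deep AC) were cut out separately by laser microdissection, which gave 2 libraries per zone and both zones of each animal. RNA from the captured areas was amplified before sequencing, so many reads can stem from 1 starting molecule and intervals from reads cover counting error only. In such bulk samples fewer cells of a type and less RNA per cell cannot be told apart. With 2 rats in all, each gene's own spread comes from 2 animals. The limma p-values given below use a spread that also draws on all tested rows.

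Retinol travels in blood bound to RBP4, is oxidised inside cells to retinal and then to retinoic acid, and retinoic acid is carried to the nucleus by CRABP2. There it binds the receptors RARA, RARB and RARG, which sit on DNA as pairs with RXR proteins and turn target genes on when the ligand is present. CYP26 enzymes break retinoic acid down. In the skeleton, retinoid signalling is known to restrain cartilage formation, and RARG in mouse chondrocytes is known to hold down gene activity when no ligand is bound.

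RAR and RXR pairs bind direct repeats of a hexamer, a motif of 6 bases, so the windows around the starts of these genes were read for such repeats. Each window runs from 250 bases before to 50 after the start and comes from RefSeq on build GRCr8, a later build than the rn4 of the expression table. All 9 genes matched, with 10 windows because Rarg has a pair of them. The hexamers searched on both strands were AGGTCA, which 16.2% of all windows held, AGTTCA, which 14.5% held, GGGTCA, with 13.8% of windows, and GGTTCA, with 11.7%. The repeats were any 2 of these spaced by 1, 2 or 5 bases, named DR1, DR2 and DR5. Every repeat also counts as hexamers. Of 33469 promoter windows of all genes, 44.4% held at least 1 hexamer, 0.233% a DR1, 0.17% a DR2 and 0.382% a DR5. Of the 10 windows of the retinoid genes, 5 held a hexamer and 1 held a repeat. That repeat is the textbook retinoic acid element of Rarb, shown as the reference form of the site, on the plus strand at chr15:11336416-11336432, with both hexamers in capitals.
Rarb DR5: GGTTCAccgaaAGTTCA

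The windows of the 3 genes that differed at least 2-fold between zones in both rats are shown in full, 5′ to 3′, with hexamers in capitals. They are Rarres1 at chr2:154093972-154094271 on the minus strand, Crabp2 at chr2:175714612-175714911 on the plus strand and Rarres2 at chr4:78856359-78856658 on the minus strand.
Rarres1: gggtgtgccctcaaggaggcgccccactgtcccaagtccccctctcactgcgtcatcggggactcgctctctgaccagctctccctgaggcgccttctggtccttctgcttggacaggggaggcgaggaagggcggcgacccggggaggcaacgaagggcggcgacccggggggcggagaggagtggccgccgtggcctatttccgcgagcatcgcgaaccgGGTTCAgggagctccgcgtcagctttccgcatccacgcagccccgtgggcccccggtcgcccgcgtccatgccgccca
Crabp2: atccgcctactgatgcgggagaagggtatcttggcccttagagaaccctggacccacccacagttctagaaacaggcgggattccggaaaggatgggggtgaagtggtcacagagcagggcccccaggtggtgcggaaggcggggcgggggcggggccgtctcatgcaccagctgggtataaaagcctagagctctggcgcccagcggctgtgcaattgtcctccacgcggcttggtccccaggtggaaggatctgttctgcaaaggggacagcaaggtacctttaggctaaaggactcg
Rarres2: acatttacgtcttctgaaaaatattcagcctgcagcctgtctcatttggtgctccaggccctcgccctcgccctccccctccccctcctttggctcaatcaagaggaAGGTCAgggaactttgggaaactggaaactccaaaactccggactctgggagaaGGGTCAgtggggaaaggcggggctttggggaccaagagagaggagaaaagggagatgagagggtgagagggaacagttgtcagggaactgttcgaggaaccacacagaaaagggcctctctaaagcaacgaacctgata
Rarres1 had 1 hexamer, at position -28 counted from the start. Rarres2 had a pair, at positions -143 and -89, and Crabp2 had none in this window. The Rarres1 window was 71.0% G and C with 31 CpG pairs, against 61.0% and 14 in Crabp2 and 53.7% and 7 in Rarres2. The median over all windows was 51.7% and 7. A match of letters is a description and not a bound site, and no match says only that these letters are not in this window.

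The deposited values are log2 values with the median of each row over the 4 libraries set to 0, so they give differences between libraries and not levels. In most rows the values matched whole reads times a constant of the library, and such reads are given where found. For Rarres1, Rara, Rarg and Rbp4 they are the smallest whole reads that match, and any common multiple would match as well. For Crabp2 a library at the table's floor fixed them. The floor is 1 scaled read, that is a read times the constant. In SFZ a value at the floor means 0 reads, and in deep AC 0 or 1 read, or in either a fraction of 1 read. For Rarres2 and Cyp26b1 no whole reads up to a sum of 20000 matched, and only log2 values are given. The reads found this way summed to 3749690 to 3946499 per library, and the total depth is unknown.

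Cartilage markers were present. Col2a1, the main collagen of cartilage, stood at -2.51 and -2.60 in SFZ minus deep AC in rat 1 and rat 2, and Acan, which encodes aggrecan, at -1.55 and -2.52. Prg4, which encodes the lubricant of the joint surface, stood at 2.11 and 3.48. None of these 3 passed the limma test between zones, and Sox9 was at 0 throughout. Of 9 chondrocyte markers above 0, 8 were lower in SFZ in both rats, and of 5 superficial zone markers 4 were higher in both. Of 6 osteoblast and osteocyte markers above 0, 4 were lower in SFZ in both rats. The summed level of the 4 of them with known reads was 293 and 6.0 scaled reads in SFZ and 742 and 111 in deep AC, with Sp7 and Sost at 0. That sum leaves out Ibsp and Alpl, whose levels are only approximate and whose mean differences were the widest of these markers. Among those in the sum, Dmp1 stood at -9.02 and -5.61 and Phex at 0.65 and -5.24. Ibsp, a bone matrix sialoprotein gene, stood at -8.75 and -10.27 and was 1 of the 3 rows that passed over the whole table (limma adjusted p = 0.0183), and Alpl, the alkaline phosphatase gene of mineralising cells, stood at -7.76 and -9.36 (limma adjusted p = 0.115). The part of cell makeup in the results below was not tested.

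Of the 7 measured genes, 3 differed by 2-fold or more with the same sign in each rat. Rarres1 and Crabp2 were lower in SFZ and Rarres2 was higher. Over all 8755 rows that reached the minimum level, 11.9% were at least 2-fold lower in both rats and 6.43% at least 2-fold higher, 18.3% in all. Of those rows 64.9% were lower, and 42.8% were with quantile normalization. In 3 of the 7 genes both SFZ libraries lay below both deep AC libraries, where 22.9% of all rows did, and in 1 both lay above, where 19.6% did. The median of the mean differences was -1.56 over the 7 genes and -0.11 over all rows. Because the genes were chosen with this contrast known, nothing is read from these shares.

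**Figure D1:**
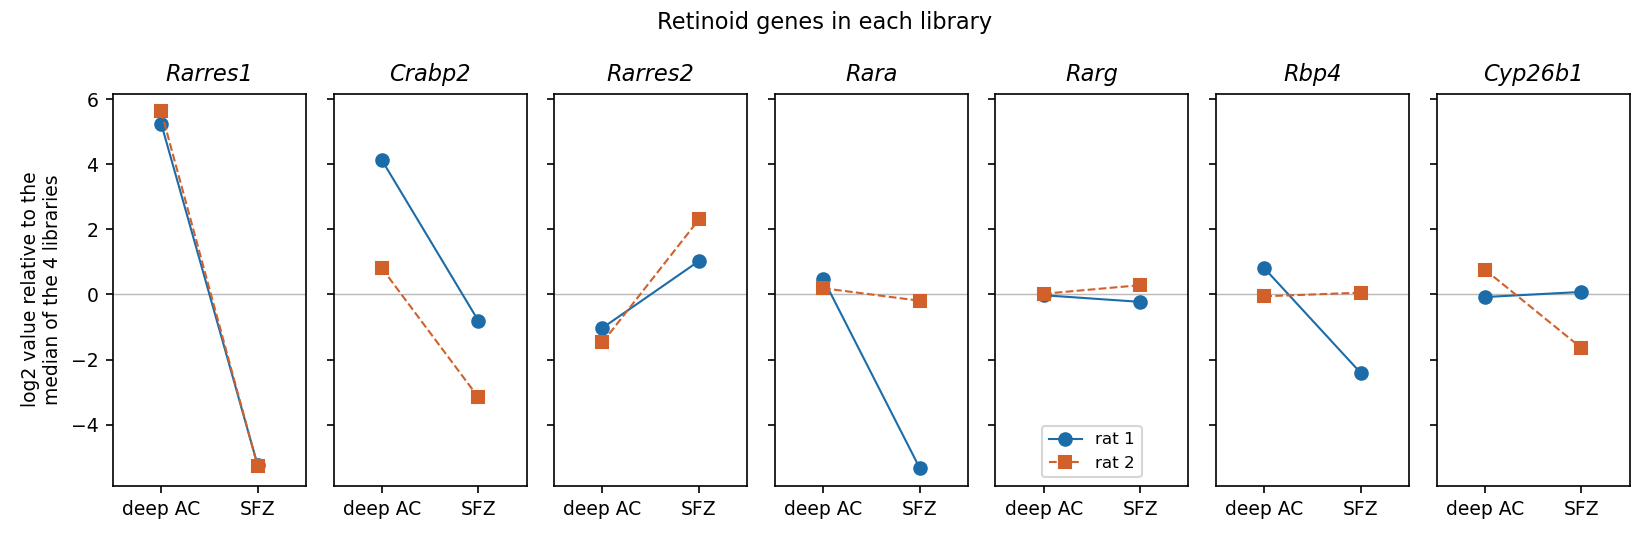
Deposited log2 values of the 7 measured genes relative to each gene's median over the 4 libraries (y axis) in deep AC and SFZ (x axis), with a line for each rat. Rarres1 drops from above 5 to below -5 in both rats, Crabp2 drops and Rarres2 climbs in both, Rara and Rbp4 drop in rat 1 and stay near the other libraries in rat 2, and Rarg stays flat.

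Rarres1, retinoic acid receptor responder 1, encodes a membrane protein related to the protease inhibitor latexin and was named for its induction by the retinoid tazarotene in human skin. The gene (Entrez 310486) lies on chromosome 2 of rn4 from 157332213 to 157367137 on the minus strand. It had 1 read in SFZ of rat 1 and 1 in SFZ of rat 2, against 1502 in deep AC of rat 1 and 2104 in deep AC of rat 2. Both deep AC libraries were high and both SFZ libraries were at the edge of detection. SFZ minus deep AC was -10.52 in rat 1 and -10.92 in rat 2, a mean of -10.72 ± 0.29 on the log2 scale (SD, n = 2 rats). Only 2 of 8755 rows had a lower mean difference. As scaled reads summed over the rats, SFZ was 1710.2-fold lower, with an exact counting interval of 473 to 14127. The width of that interval comes from the single reads in SFZ. Of the bone markers given above, Ibsp, Alpl and Dmp1 were low in the same SFZ libraries, while Phex was higher in SFZ in rat 1. Their part was not tested. The mean difference was -9.73 with 1 added before the log and -8.52 with quantile normalization.

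The rows nearest to Rarres1 over the 4 libraries, by Euclidean distance of the log2 values, were Grem1 at 0.13, Tnni2 at 0.74 and Frzb at 0.80. These values are relative to each row's median, so the distance compares differences between libraries and not levels. Grem1, which encodes an antagonist of bone morphogenetic proteins, stood at -10.66 and -11.03, Tnni2, a troponin gene, at -9.66 and -10.47, and Frzb, a secreted WNT antagonist gene, at -11.35 and -11.54. Lxn, which encodes latexin and is listed in the table as the paralog of Rarres1, lies 16308 bases from it on the same strand. It stood at -3.02 in rat 1 and -3.59 in rat 2 and did not pass the test (limma adjusted p = 0.361). Lxn lies within the span of Gfm1, a mitochondrial translation factor gene on the opposite strand that ends 4244 bases from Rarres1. Gfm1 had 1613 and 125 reads in SFZ and 980 and 225 in deep AC. Both rat 1 libraries were higher than both of rat 2, with zone differences of 0.76 and -0.73 (limma adjusted p = 0.998).

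Rarres2, retinoic acid receptor responder 2, encodes chemerin, a secreted protein that attracts immune cells and acts on fat cells. The gene (Entrez 297073) lies on chromosome 4 from 76659507 to 76662465 on the minus strand. Its log2 values were 1.03 in SFZ of rat 1, 2.31 in SFZ of rat 2, -1.03 in deep AC of rat 1 and -1.48 in deep AC of rat 2. Both SFZ libraries lay above both deep AC libraries. The difference was 2.06 in rat 1 and 3.78 in rat 2, that is 4.16-fold and 13.8-fold higher in SFZ, with a mean of 2.92 ± 1.22 (SD, n = 2 rats). A higher mean difference was seen in 225 of 8755 rows.

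Rarres2 shares 1010 bases with Lrrc61 on the opposite strand, and the sources used here do not say whether reads were counted by strand. Lrrc61, a gene of a leucine-rich repeat protein, stood at 1.23 and 0.62 (limma adjusted p = 0.550), the same direction with smaller differences. Cmklr1, the signalling receptor of chemerin, had 1634 and 870 reads in SFZ and 795 and 1220 in deep AC, so the zones overlapped. Its differences were 1.08 and -0.37 (limma adjusted p = 0.844). The other chemerin receptors, Gpr1 and Ccrl2, were listed at 0 in all 4 libraries. Markers of fat cells, macrophages and fibroblasts were set beside Rarres2. Of 6 adipocyte markers, Adipoq, Cfd, Lep and Retn were at 0 in all libraries, and the other 2 summed to 42 and 159 scaled reads in SFZ and 188 and 149 in deep AC. The 9 macrophage markers summed to 3273 and 1732 scaled reads in SFZ and 3815 and 1825 in deep AC, but did not move together. Mrc1, which made up much of the sum, had 1137 and 1437 scaled reads in SFZ and 3511 and 1599 in deep AC. Lyz2, the lysozyme gene, went the other way in rat 1, with 1686 and 196 in SFZ and 145 and 146 in deep AC. Of 7 markers of synovial and tendon fibroblasts above 0, 4 were higher in SFZ in both rats, the direction of Rarres2, and 2 were lower in both. Among the higher ones Col1a1 differed most, by 7.16 in rat 1 and 2.27 in rat 2. Col3a1 differed least, by 0.37 in rat 1 and 0.26 in rat 2, with Pdgfra and Col15a1 between them. The lower ones were Scx and Dcn, the latter with -1.69 in rat 1 and -4.01 in rat 2. The part of these cells in the Rarres2 values was not tested.

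Crabp2, cellular retinoic acid binding protein 2, hands retinoic acid to its nuclear receptors. The gene (Entrez 29563) lies on chromosome 2 from 180029801 to 180034147 on the plus strand. It had 5 reads in SFZ of rat 1 and 0 in SFZ of rat 2, against 158 in deep AC of rat 1 and 17 in deep AC of rat 2. The zones did not overlap, and rat 1 was the higher animal in both. SFZ was 30.8-fold lower in rat 1, with an exact counting interval of 12.9 to 96.2, and at least 5.22-fold lower in rat 2, from a floor of 3 reads per library. The log2 difference was -4.94 in rat 1 and -3.97 in rat 2, a mean of -4.46 ± 0.69 (SD, n = 2 rats), and the rat 2 value depends on the table's floor. With quantile normalization the differences were -3.46 and -0.98, so rat 2 no longer reached 2-fold.

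In the deep layers Crabp2 had the widest gap between animals of the 7 genes. The 2 deep AC libraries were 3.33 apart on the log2 scale, and 5.01% of all tested rows had a larger gap. The rows nearest to Crabp2 over the 4 libraries were Gap43 at a distance of 0.47, Rbm47 at 0.56 and Tf at 0.97. Gap43, a growth cone protein gene, stood at -4.87 and -4.13, Rbm47, an RNA binding protein gene, at -4.64 and -3.47, and Tf, which encodes transferrin, at -4.57 and -2.88.

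**Figure D2:**
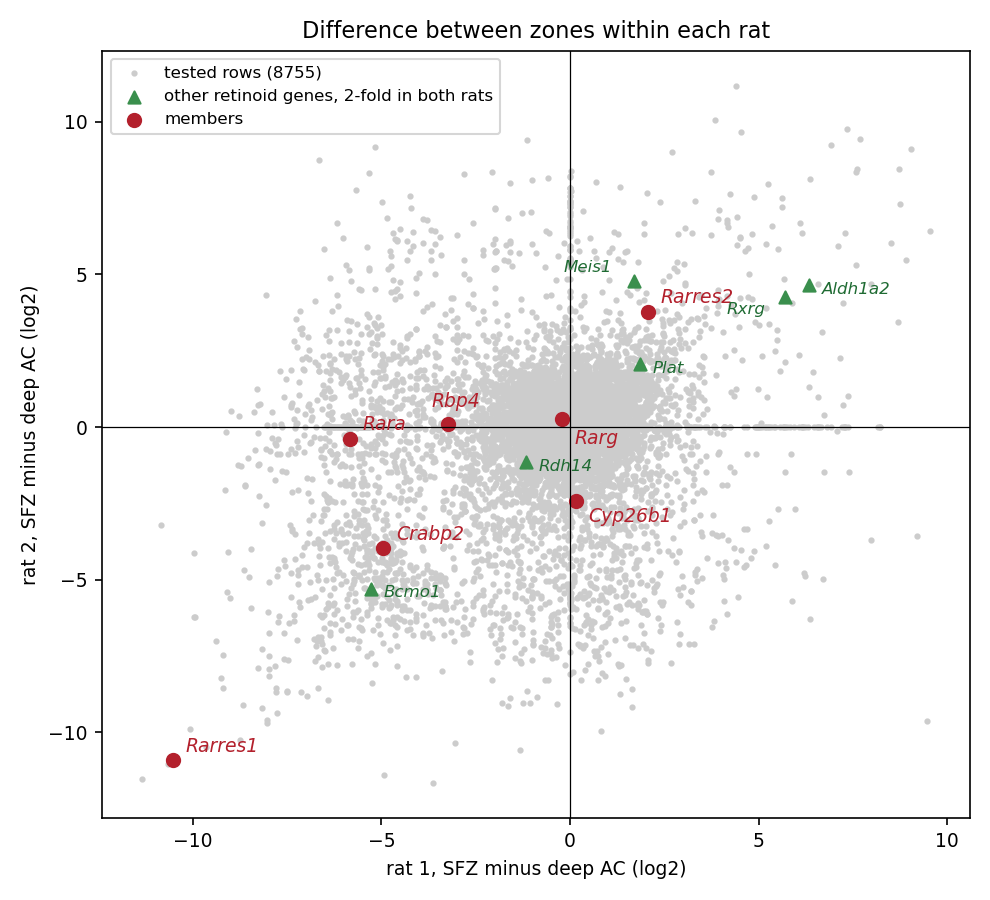
Difference between SFZ and deep AC (log2) in rat 1 (x axis) and rat 2 (y axis) for the 8755 tested rows in grey, the 7 measured retinoid genes in red and 6 other retinoid pathway genes that were at least 2-fold apart in both rats in green. Rarres1 lies at -10.52 and -10.92 near the lower left edge of all rows, while Rara and Rbp4 lie near the horizontal axis because they differed in rat 1 alone.

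Of the retinoic acid receptors, Rarg and Rara were measured. Rarg (Entrez 685072, chromosome 7, 140991447 to 141014108, minus strand), known from mouse as the main RAR of growth plate chondrocytes, had 192 reads in SFZ of rat 1, 280 in SFZ of rat 2, 227 in deep AC of rat 1 and 253 in deep AC of rat 2. The zones overlapped, and the differences were -0.20 and 0.26, averaging 0.03 ± 0.33 (SD, n = 2 rats). Its range over the 4 libraries was 0.51 on the log2 scale, the narrowest of the 7 genes. SFZ was 1.15-fold lower in rat 1 (exact counting interval 0.947 to 1.40) and 1.20-fold higher in rat 2 (1.01 to 1.43).

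Rara (Entrez 24705, chromosome 10, 87740479 to 87753265, plus strand), the most widely expressed RAR, had 1 read in SFZ of rat 1, 36 in SFZ of rat 2, 58 in deep AC of rat 1 and 51 in deep AC of rat 2. The SFZ library of rat 1 stood alone and the other 3 lay close together. SFZ was 56.5-fold lower in rat 1 (exact counting interval 9.75 to 2271) and 1.31-fold lower in rat 2 (0.836 to 2.06). The log2 differences were -5.82 and -0.39, averaging -3.10 ± 3.84 (SD, n = 2 rats), so the mean was smaller than the spread between the rats. The rat 2 difference was 0.43 with quantile normalization, in the opposite direction.

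Rbp4 (Entrez 25703, chromosome 1, 242443795 to 242450997, minus strand), the blood carrier of retinol, had 589 reads in SFZ of rat 1, 3341 in SFZ of rat 2, 5649 in deep AC of rat 1 and 3352 in deep AC of rat 2. Both libraries of rat 2 were level, and in rat 1 SFZ was low. The differences were -3.22 and 0.11, averaging -1.56 ± 2.36 (SD, n = 2 rats), and the rat 2 value was -0.06 with quantile normalization. SFZ was 9.35-fold lower in rat 1, with an exact counting interval of 8.59 to 10.2. Stra6, the cell surface receptor of RBP4, had 7 reads in deep AC of rat 1 and was at the floor in the other 3 libraries. Ttr, which encodes transthyretin, the partner of RBP4 in blood, was listed at 0.

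Cyp26b1 (Entrez 312495, chromosome 4, 118734786 to 118751606, minus strand) encodes the enzyme that clears retinoic acid in developing limb and skeleton. Its log2 values were 0.08 in SFZ of rat 1, -1.65 in SFZ of rat 2, -0.08 in deep AC of rat 1 and 0.76 in deep AC of rat 2. Here the SFZ library of rat 2 was the low one, and the zones overlapped. The differences were 0.16 and -2.41, averaging -1.13 ± 1.82 (SD, n = 2 rats). Its relatives Cyp26a1 and Cyp26c1 were listed at 0 in all 4 libraries.

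The gap between the animals was larger in SFZ than in deep AC for 5 of the 7 genes, as for 64.8% of all tested rows. The SFZ gap, rat 1 minus rat 2, was -5.14 for Rara, -2.47 for Rbp4, 2.35 for Crabp2, 1.73 for Cyp26b1, -1.28 for Rarres2, -0.51 for Rarg and 0.03 for Rarres1. The median size over all tested rows was 0.90 in SFZ and 0.52 in deep AC. A larger SFZ gap than that of Rara was seen in 10.6% of rows. The gap of Rarres1 comes from 1 read in each SFZ library, so it reflects the library constants and no agreement between the animals is read from it. Beside these gaps, macrophage markers differed between the SFZ libraries in both directions. Their sum was 3273 scaled reads in SFZ of rat 1 and 1732 in SFZ of rat 2. C1qa and C1qb were above the floor in SFZ of rat 1 alone, at 122 and 93 scaled reads. Also higher in SFZ of rat 1 than of rat 2 were Lyz2 (1686 and 196), Aif1 (171 and 0), C1qc (37 and 0) and Csf1r (1.0 and 0). Higher in SFZ of rat 2 were Cd68, with 0 scaled reads in rat 1 and 68 in rat 2, Mrc1 (1137 and 1437) and Ptprc (28 and 30). Their part was not tested.

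**Figure D3:**
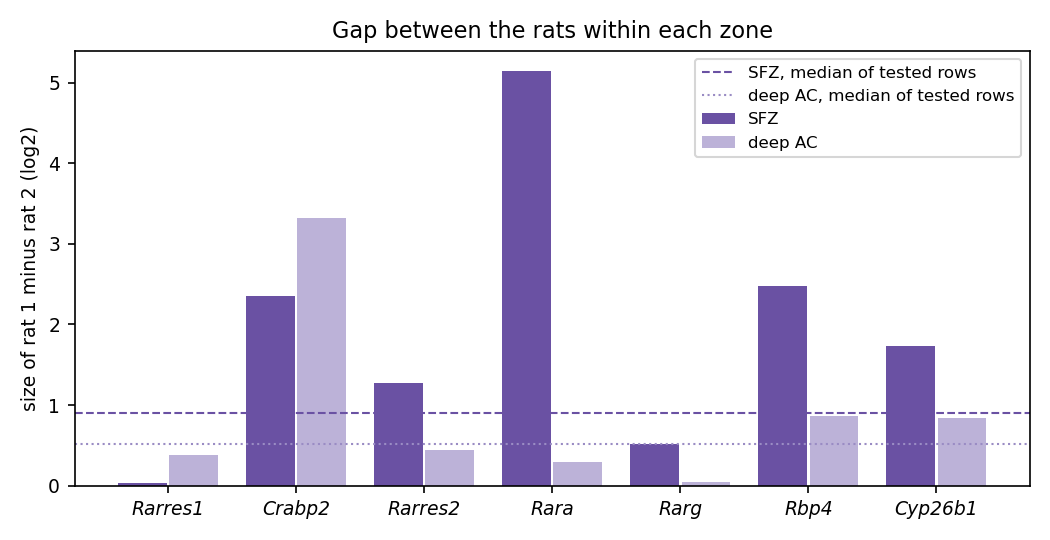
Size of the difference between rat 1 and rat 2 (log2, y axis) within SFZ and within deep AC for each measured retinoid gene, with the median over all tested rows as a dashed line for SFZ and a dotted line for deep AC. Rara has the tallest SFZ bar and Crabp2 the tallest deep AC bar at 3.33, while Rarres1 is at 0.03 in SFZ.

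The rest of the retinoid pathway was followed in a list of 52 gene symbols grouped by role. Of these, 23 reached the minimum level, 7 were below it, 19 were listed at 0 in all libraries and 3 had no row under the symbol. The last include Bco1, a newer symbol of Bcmo1, which is among the 23. By limma none of the 23 passed as higher and none as lower, where 0.0343% of all tested rows passed, and 3 of the 23 had an unadjusted p under 0.05, where 9.46% of all rows did. The median of the mean differences was 0.16, and 9 of the 23 had opposite signs in the rats, as 43.1% of all tested rows did. Of the 23, 4 were at least 2-fold higher in SFZ in both rats, where 6.43% of all tested rows were, and 2 at least 2-fold lower, where 11.9% were.

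Among the genes of retinoic acid synthesis, Aldh1a2, the enzyme that makes retinoic acid in embryonic mesoderm and in connective tissue, had 79 and 25 SFZ reads, while deep AC of both rats stayed at the floor, so no fold is given (limma adjusted p = 0.524). Aldh1a1 and Aldh1a3 were listed at 0. Rdh14, which can oxidise retinol, had 185 and 187 reads in SFZ and 427 and 453 in deep AC, with no overlap, and stood at -1.17 and -1.16 (limma adjusted p = 0.612). Rdh10, the main retinol oxidising enzyme of the embryo, had 3 reads in deep AC of rat 1 and was at the floor elsewhere. Bcmo1, which cleaves beta-carotene into retinal, had 39 and 43 reads in deep AC but 0 in either SFZ library, which puts SFZ at least 12.7-fold lower in rat 1 and 13.2-fold in rat 2 from 3 reads per library (limma adjusted p = 0.524). Dhrs3, which turns retinal back into retinol and is known to be induced by retinoic acid, had 4094 and 3267 reads in SFZ and 2286 and 2258 in deep AC, and stood at 0.88 and 0.65 (limma adjusted p = 0.555). Rbp2 and Rbp7, which encode cellular retinol binding proteins, were listed at 0.

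Of the RXR partners of the receptors, Rxrb had 840 and 633 reads in SFZ and 441 and 869 in deep AC, with overlapping zones (limma adjusted p = 0.880). Rxrg had 51 and 19 SFZ reads, while both deep AC libraries lay at the same floor, with differences of 5.70 and 4.25 that depend on that floor (limma adjusted p = 0.538). Rxra had 20 and 8 reads in deep AC but 0 in either SFZ library, and it was below the minimum level for the test. Of the corepressors and coactivators tested, Nrip1 stood at -0.45 and -2.86, Ncor1 at 1.24 and 0.01, Ncoa1 at -1.20 and 1.52 and Ncoa2 at -5.32 and 3.61, and Ncoa3 was listed at 0.

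Among genes known to respond to retinoic acid, Plat, which encodes tissue plasminogen activator, had 1858 and 1520 reads in SFZ and 525 and 397 in deep AC. The zones did not overlap, and it stood at 1.86 and 2.05, which averages 1.96 ± 0.14 (SD, n = 2 rats; SE 0.41; limma adjusted p = 0.337). Meis1, a homeobox transcription factor gene of the limb, had 376 and 1279 reads in SFZ and 118 and 50 in deep AC, and stood at 1.71 and 4.79 (limma adjusted p = 0.487). Tgm2, a transglutaminase gene, stood at 0.57 and 0.11, and Rai14 at -0.04 and -0.61. Hoxa5 and Cdx1 were listed at 0.

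**Figure D4:**
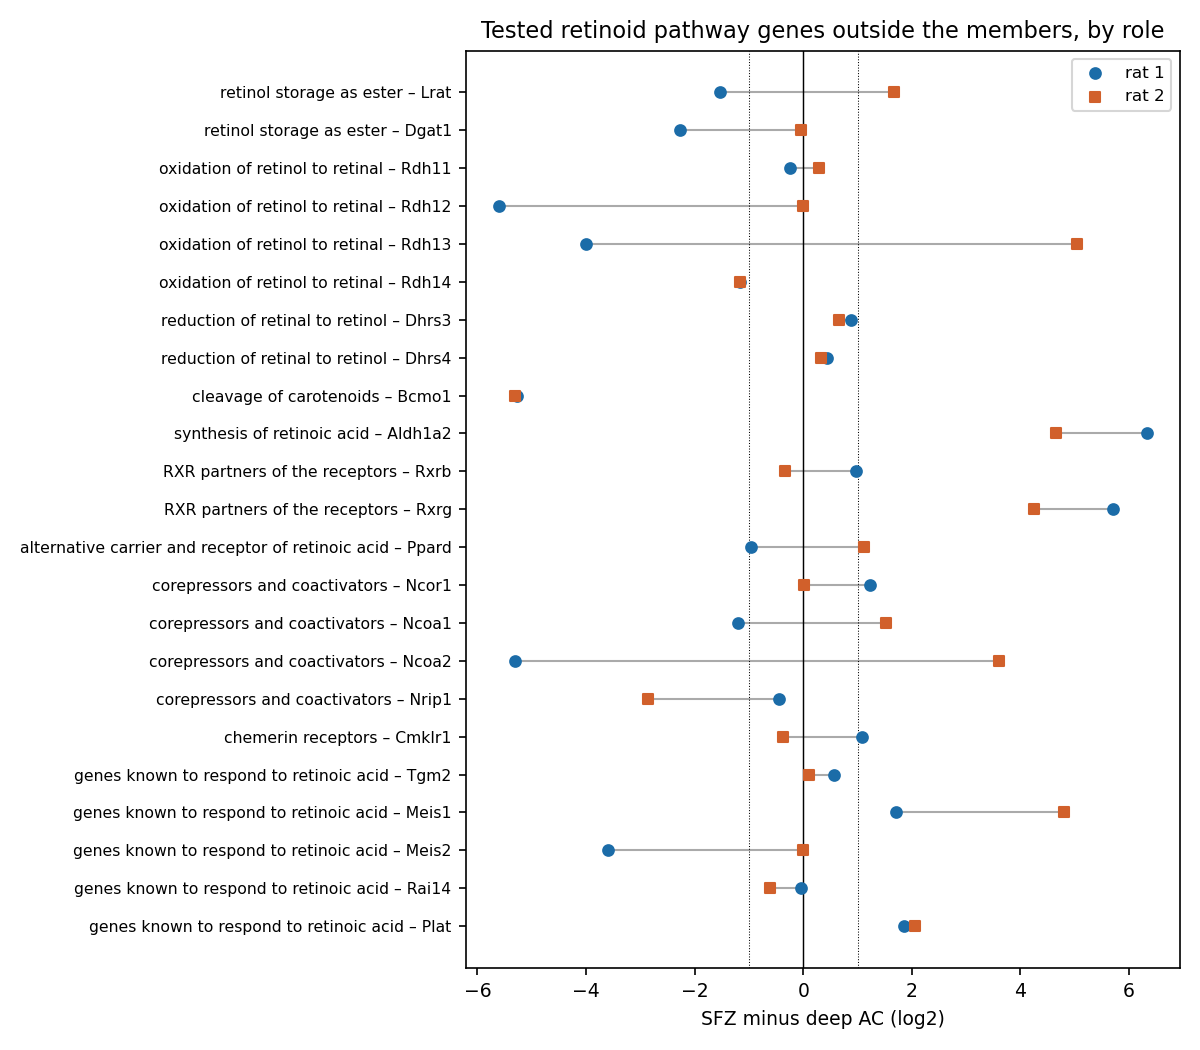
Difference between SFZ and deep AC (log2, x axis) in rat 1 and rat 2 for the 23 tested retinoid pathway genes outside the 7 described above, each labelled with its role; dotted lines mark 2-fold. Aldh1a2, Rxrg, Meis1 and Plat lie right of the 2-fold line in both rats, Bcmo1 and Rdh14 left of it, and Rdh13 and Ncoa2 are spread to opposite sides.

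The deposited table also annotates genes to a response to retinoic acid. Outside the 9 genes 92 rows were so annotated, and 51 of them reached the minimum level. These rows overlap the pathway list above, and Rxrg counts as higher in both. By limma 0 of the 51 passed and 6 had an unadjusted p under 0.05, where 9.46% of all rows had. Of the 51, 5.88% were at least 2-fold lower in SFZ in both rats and 13.7% at least 2-fold higher, against 11.9% and 6.43% of all tested rows, with a median difference of -0.00. These annotations were taken up after values had been seen, so the shares carry no test. The largest of them by the smaller of both rats' differences were Ntrk3, a neurotrophin receptor gene, at 7.98 and 4.68 (limma adjusted p = 0.335), Bmp4, a bone morphogenetic protein gene, at 4.52 and 6.18 (limma adjusted p = 0.0850), and Ptch1, the hedgehog receptor gene, at -4.72 and -4.47 (limma adjusted p = 0.540). Ptch1 had 2 and 3 reads in SFZ and 54 and 72 in deep AC. Ntrk3 had 1481 and 711 reads in SFZ and 6 and 30 in deep AC.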

How the data were processed

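The authors deposited a single table of log2 values for 4 libraries, titled TMM (trimmed mean of M values), and the build was rn4, per the submitters' processing notes. Which aligner and counting program were used is not stated in the sources used here. Levels were recovered from the deposited log2 values. In rows above 0 in a single library, 93.98% to 96.75% of values were whole multiples of a constant (1.02, 1.00, 0.996 and 0.923 in SFZ rat 1, SFZ rat 2, deep AC rat 1 and deep AC rat 2; relative tolerance 1e-05). In 3476 rows a library at the floor set the level, in 5371 a search for whole reads (tolerance 1e-06) did, and in the other 467 and 1475, treated by separate rules, it was only approximate; the rule for rows with a floor was settled after a count of calls had been seen. The 8755 rows averaging 10 scaled reads or more were fitted with limma 3.58.1 in R 4.3.3, with zone and rat as terms (lmFit, eBayes with trend on the recovered level). The fit had 1 residual degree of freedom, and p-values are two-sided, with Benjamini-Hochberg adjustment at 0.05.

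Rat entered as a block, since titles link the zones of an animal. As a check, the gaps between the rats in SFZ and in deep AC had a Pearson's r of 0.05 across genes, which are not independent replicates. Recovery and fit were tested on simulated data. Exact intervals are Clopper-Pearson at 95%. The members and lists were chosen with earlier results of these data known. Named are all members, pathway genes past the threshold or at least 2-fold apart the same way in both rats, the 3 rows nearest to each of the 2 members of widest range, and Col2a1, Acan, Sox9 and Prg4. Other genes of the pathway are named to fill in their role, and genes next to a member or annotated to retinoic acid were chosen after their values had been seen. The planned comparison of protein sequences was not made, and some genes of the pathway list are not reported here by name.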

Additional observations from a re-analysis of the deposited data

How the results depend on the processing

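In the limma fit of zone and rat 3 of 8755 rows passed, none higher and 3 lower in SFZ (Frzb, Tnni2 and Ibsp). With no replicate block, that is without pairing by rat, 2 passed. With an untrended prior 0 passed, and with quantile normalization 157 did, 66 higher and 91 lower. Leaving out 1 library gave 0 to 70: 0 without either SFZ library or deep AC rat 1, and 70 without deep AC rat 2. These fits had zone alone as a term, since 3 libraries leave no residual degree of freedom with rat, so the library and the pairing changed together. The lone library of a zone is then assumed to vary like the others. Of the pathway genes 0 passed in these fits, apart from 1, Rdh12, without deep AC rat 2. Rdh12 had 49 reads in deep AC rat 1 and was at the floor elsewhere, so its spread in that fit came from equal floor values (SE 0.06), and with all 4 libraries its adjusted p was 0.738 by limma. Over the leave-outs the count was 0 to 1. The adjusted p of the 6 named pathway genes ran from 0.0646 to 0.777 over all settings. The 1604 rows at least 2-fold apart in both rats, 64.9% lower, became 813 with a minimum mean of 100 scaled reads, 45.1% lower. With 1 rat left out 4159 to 4214 rows were at least 2-fold apart in the other. Of the 7 members, 3 were 2-fold apart in both rats, 2 with quantile normalization, and 4 or 5 with 1 rat left out, 4 in rat 2 alone and 5 in rat 1 alone. Quantile normalization used approximate levels for rows without known reads. It moved the median difference of all rows in rat 1 from -0.13 to 0.03, and in rat 2 the median of 0.00 became 0.04. The mean differences of the members moved by more than the SD of the rats in 3 of the 14 settings that kept both rats, for Rarres1 with quantile normalization (-8.52) and with 1 added (-9.73), and for Crabp2 with quantile normalization (-2.22). The cause of these shifts was not tested. Few reads in SFZ limit Rarres1 (1 and 1 in rat 1 and rat 2), Crabp2 (5 and 0) and, in rat 1, Rara (1).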
